A study of Caenorhabditis elegans with 2 samples.

Results

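Binding near 6 genes of touch receptor neuron fate was described from a map of UNC-62 in whole Caenorhabditis elegans: the regulators unc-86, mec-3, egl-44 and egl-46 and the effector genes mec-4 and mec-7. They are 6 of the 19973 nuclear protein-coding genes of the annotation. The members were chosen by name with results of the same peak lists known, among them the strong peak upstream of mec-3, so that peak and the contrast between regulators and effector genes are descriptions and were given no test. For each gene every peak with its summit in the gene body or in the 5 kb upstream was taken, and this stretch is called the window below.

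Chromatin immunoprecipitation followed by sequencing was done on young adults at 4 days, with males and females pooled, in 2 biological replicates of 1 group. All worms were of strain OP600, in which the unc-119 allele ed3 is carried together with the transgene wgIs600, a fusion of unc-62 to TY1, EGFP and FLAG tags with an unc-119 marker. The antibody is labelled as unc-62 and the target as the EGFP fusion. The extract was of the whole organism, of which touch receptor neurons are a small part. Weak binding in many cells and strong binding in few therefore cannot be told apart by signal. Peak lists also hold no markers with which to check the tissue. There was no second condition, so members were compared with all genes and between the replicates only.

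Touch receptor neurons are the mechanosensory cells with which the worm feels gentle touch to its body. The POU homeodomain protein UNC-86 is needed for their lineages and starts the expression of mec-3, which encodes a LIM homeodomain protein. UNC-86 and MEC-3 then bind DNA together at the promoters of effector genes and of mec-3 itself. EGL-44, of the TEAD family, and the zinc finger protein EGL-46 act together to block touch receptor traits in other neurons that express mec-3. MEC-4 is a pore-forming subunit of the touch-sensitive ion channel, and MEC-7 is a beta-tubulin of the special microtubules of these cells. UNC-62 is the worm protein of the Meis and Homothorax class of homeodomain factors, which often bind DNA with partners of the Pbx class, and it is known to act with the Pbx-type protein CEH-20.

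The 3 thresholded peaks of egl-44, the member with the most, are shown first, as 100 bases on each side of the summit, read 5′ to 3′ on the strand of the gene (ce11). They lay on the plus strand at chrII:5930252-5930452, chrII:5932006-5932206 and chrII:5936091-5936291. Capitals mark the words TGACAG (Meis type), TGATTGAC (Pbx-Meis type), TGATNNAT (Pbx-Hox type), AATGCAT (reported for UNC-86 with MEC-3) and CATTCC (TEAD type), searched on both strands.
egl-44 first intronic peak: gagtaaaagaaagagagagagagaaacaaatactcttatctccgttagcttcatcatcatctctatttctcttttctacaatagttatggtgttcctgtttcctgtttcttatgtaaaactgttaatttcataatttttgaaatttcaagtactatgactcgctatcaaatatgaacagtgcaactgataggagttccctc
egl-44 middle intronic peak: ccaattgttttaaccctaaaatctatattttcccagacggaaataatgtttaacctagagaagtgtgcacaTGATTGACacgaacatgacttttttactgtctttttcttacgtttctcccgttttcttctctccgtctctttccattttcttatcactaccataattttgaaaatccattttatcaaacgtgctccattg
egl-44 last intronic peak: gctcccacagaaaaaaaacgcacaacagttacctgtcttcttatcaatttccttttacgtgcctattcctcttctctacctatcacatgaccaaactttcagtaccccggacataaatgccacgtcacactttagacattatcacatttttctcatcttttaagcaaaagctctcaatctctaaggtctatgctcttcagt

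The middle peak, the strongest of the 3, had TGATTGAC at -29 from its summit, a word present within 50 bp of 5.03% of thresholded and 0.790% of pooled nuclear summits. The first and last intronic peaks held none of the 5 words in the printed stretches, and TGACAG was in none of the 3. Within the same 100 bp of the summit, TGACAG was at 28.7% of the 815 thresholded and 10.03% of the 18993 pooled nuclear summits. Neither the TEAD-type word nor the Pbx-Hox-type word nor AATGCAT was in any of the 3 printed peaks. AATGCAT was at 2.58% of thresholded and 3.17% of pooled nuclear summits, CATTCC at 9.82% and 8.57%, and TGATNNAT at 18.3% and 16.7%. A match is a description of the letters and shows no binding site.

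The thresholded list is the one kept by the authors under an irreproducible discovery rate (IDR). In it, 2 of the 4 regulators and 0 of the 2 effector genes had a summit in the window, against 6.05% of all nuclear protein-coding genes (1209 of 19973). The genes were mec-3 with 1 peak and egl-44 with 3. In the relaxed list called on pooled reads, which holds background by design, 4 of the 6 members had a summit, against 72.4% of all genes: egl-44 with 9, mec-3 with 4, egl-46 with 3 and mec-7 with 1. Every member had a summit in the relaxed lists of replicate 1, where 87.3% of all genes had one, and replicate 2, where 84.3% did. A relaxed summit is therefore common at any gene, and the signal value and rank say more than presence. The signal is the authors' peak strength, used here within a list.

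**Figure D1:**
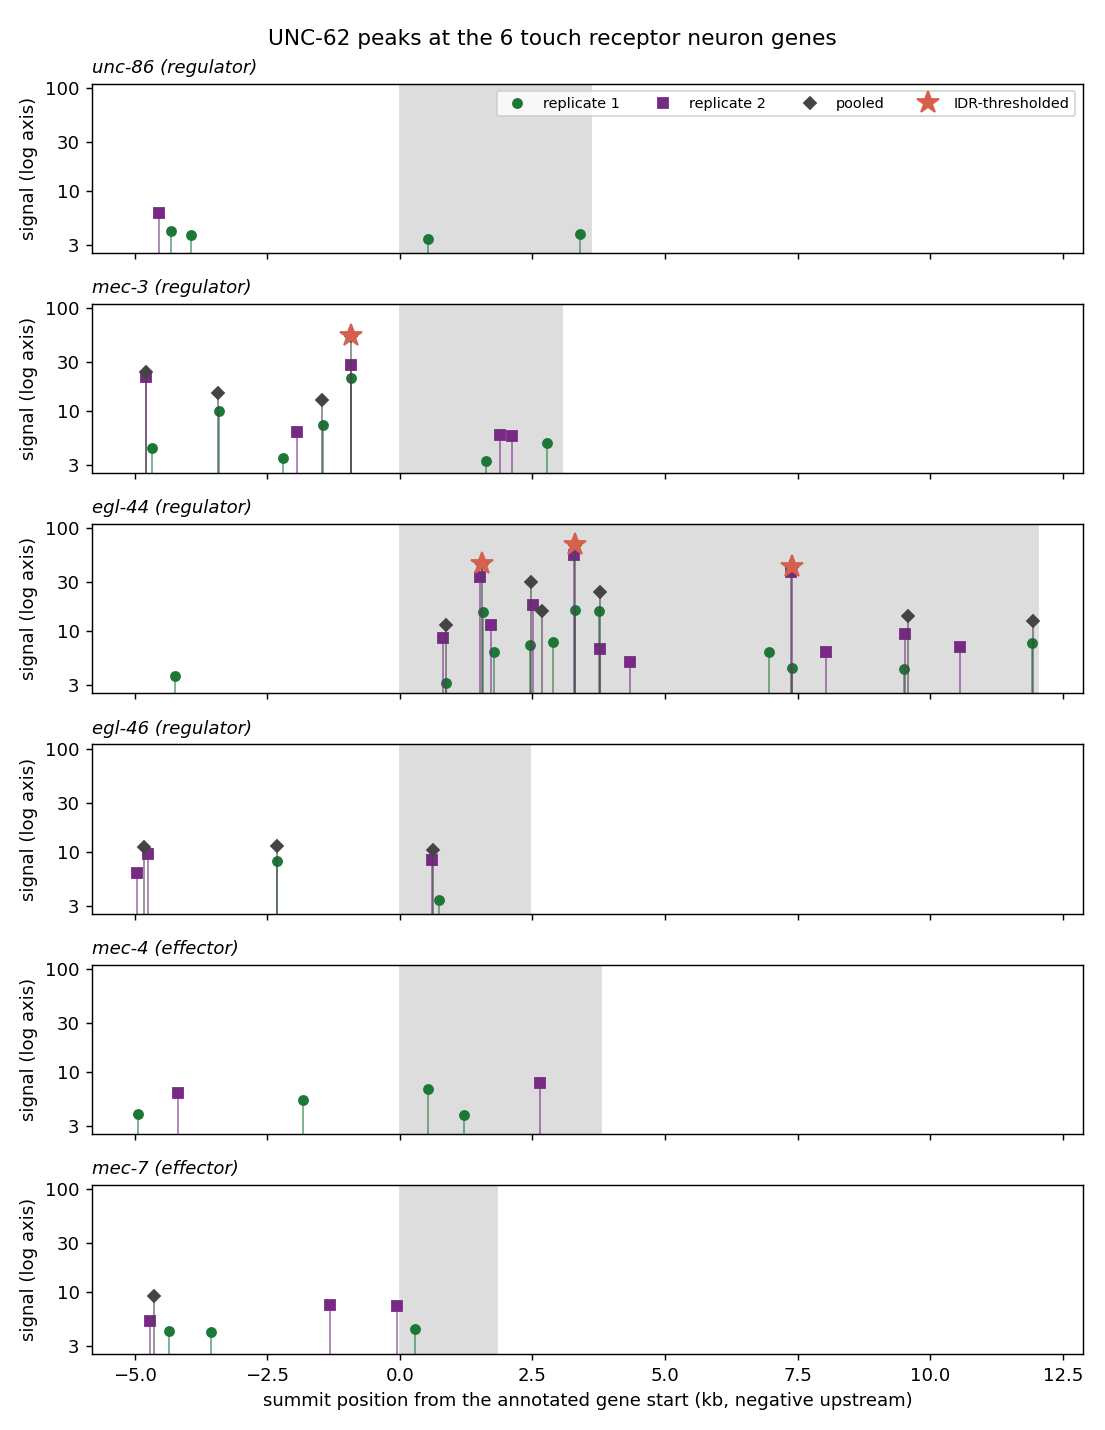
Position of every peak summit in the window of each gene, in kb from the annotated gene start along the strand of the gene (x axis), against signal as deposited (y axis, log scale). Grey marks the gene body, circles are replicate 1, squares replicate 2, diamonds the pooled list and stars the thresholded list. The stars stand 925 bp upstream of mec-3 and inside egl-44, and no point at unc-86, egl-46, mec-4 or mec-7 exceeds 11.3.

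The gene mec-3 (WBGene00003167, chrIV:10458816-10461867, minus strand) had its thresholded peak in intergenic sequence, with the summit 925 bp upstream of the gene start. The signal was 20.8 in replicate 1, 27.9 in replicate 2 and 54.1 in the pooled list. It ranked 197 of 30000 in replicate 1, 391 of 28092 in replicate 2 and 179 of 843 in the thresholded list. The summits of both replicates lay within 5 bp of the pooled one, at -929 and -920 bp from the gene start, so this peak was strong and at the same place in both. It also lies in the upstream window of ugt-43, a predicted glucuronosyltransferase gene on the other strand, with the mec-3 start nearer. Of all genes, 1.25% had a stronger pooled peak in their window.

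The other mec-3 summits were weaker, and the 3 in the pooled list differed between the replicates. A peak 1479 bp upstream had a pooled signal of 12.7, with 7.42 in replicate 1 and no overlapping peak in replicate 2. A peak 3426 bp upstream, in an intron of ugt-43, had 14.9 pooled and 9.95 in replicate 1, again with none in replicate 2. The farthest, 4793 bp upstream in coding sequence of ugt-43, had 23.8 pooled with 21.3 in replicate 2, where it ranked 829, and 4.41 in replicate 1, where it ranked 17135. All 3 of these peaks were nearer to the start of ugt-43 than to that of mec-3. Just beyond the 5 kb limit, the next pooled summit stood 5654 bp upstream with a signal of 26.6. Within the mec-3 gene body the pooled list held no summit. The replicate lists held only weak ones there, with signals of 3.30 and 4.94 in replicate 1 and 5.80 and 5.91 in replicate 2. Of these, the peaks of 3.30 and 5.91 overlapped. Upstream, weak peaks of 3.49 in replicate 1 and 6.23 in replicate 2 overlapped each other and no pooled peak. Their summits lay 2213 and 1949 bp from the start.

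The gene egl-44 (WBGene00001208, chrII:5928802-5940830, plus strand) is the longest member, at 12029 bp with 13 annotated coding transcripts from 9 starts. All 3 of its thresholded summits were in introns. The strongest, at chrII:5931946-5932265, had a signal of 16.0 in replicate 1, 54.8 in replicate 2 and 69.4 pooled. It lay 1380 bp upstream of the nearest internal start and ranked 87 of 843, with 0.546% of all genes having a stronger pooled peak. The first, at chrII:5930192-5930511 and 1522 bp downstream of the nearest start, had 15.4 and 33.6 in replicates 1 and 2 and 45.5 pooled. The last, at chrII:5936031-5936350 and 250 bp upstream of an internal start, had 4.43 in replicate 1, 37.8 in replicate 2 and 42.6 pooled.

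The first and middle peaks of egl-44 were among the 843 strongest of each replicate, with ranks of 478 and 424 in replicate 1 and 237 and 55 in replicate 2. The last ranked 164 in replicate 2 and 17045 of 30000 in replicate 1, so its place in the thresholded list went with replicate 2. Conversely, a peak 915 bp upstream of an internal start (chrII:5932411-5932730, pooled 24.0) had 15.7 in replicate 1, at rank 444, and 6.82 in replicate 2, at rank 14042, and was not in the thresholded list. Another, at chrII:5931122-5931441, stood just outside that list with a pooled signal of 30.5, against 31.2 for the weakest thresholded peak. It had 7.39 in replicate 1 and 18.1 in replicate 2. The 4 remaining pooled summits of egl-44 had signals of 11.5 to 15.7. Of these, the peak of 15.7 (chrII:5931321-5931640) overlapped the peak of 30.5. The peak of 12.5 (chrII:5940588-5940907) lay in the 3′ untranslated region, with the start of F28B12.6 nearest to it, at -115 bp. In the 5 kb upstream of the annotated gene start there was no pooled summit, and replicate 1 alone had 1, with a signal of 3.72. The next pooled summit upstream lay 10394 bp away, at 10.8.

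The number of peaks at egl-44 was also set beside all genes. At least 3 thresholded summits were found in the windows of 21 genes (0.105%), and at least 9 pooled summits in those of 112 genes (0.561%). A long window holds more summits, since egl-44 spans 17029 bp against a median of 7027 bp. Among the 956 genes with a window within 20% of its length, egl-44 included, 9.52% had at least 1 thresholded summit and 5 (0.523%) had at least 3.

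**Figure D2:**
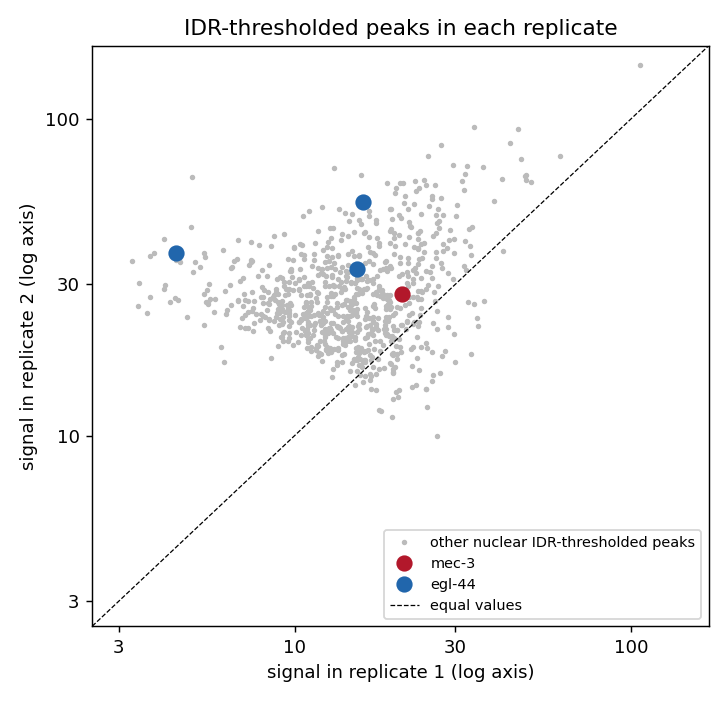
Signal in replicate 1 (x axis) against replicate 2 (y axis), both on log scales, for the 807 nuclear thresholded peaks with an overlapping peak in both replicates. Red is the mec-3 peak, blue are the 3 egl-44 peaks, grey are all others, and the dashed line marks equal values. The mec-3 point (20.8 and 27.9) lies nearest to the line among the 4, and 1 egl-44 point lies far to the left (4.43 and 37.8).

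The ratio of replicate 1 to replicate 2 was 0.745 at the mec-3 peak, and 75.6% of the 807 nuclear thresholded peaks with a value in both replicates had a lower one. At egl-44 the ratios were 0.457, 0.292 and 0.117 from the first to the last peak, with lower ratios at 38.5%, 11.8% and 0.867% of peaks. The median over all 807 was 0.534, with quartiles of 0.370 and 0.740. The scales of the replicate lists are not stated to be shared, so each ratio is read only against the other ratios. The last egl-44 peak thus stood near the low end of these 807 peaks, with 7 below it. The list held 815 nuclear peaks, and those without an overlapping peak in both replicates had no ratio. By Euclidean distance of the log2 signal in replicate 1, replicate 2 and the pooled list, the peaks most like that of mec-3 had the starts of hsr-9 (distance 0.0777), nhr-71 (0.0990) and zfp-1 (0.145) nearest to them. The values at hsr-9 were 20.6, 29.0 and 52.1, at nhr-71 21.9, 27.5 and 51.8, and at zfp-1 21.7, 29.6 and 50.4.

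The gene unc-86 (WBGene00006818, chrIII:8212740-8216336, minus strand) had no summit in the pooled or thresholded list, whose lowest signals were 8.57 and 31.2. Replicate 1 had 4 relaxed summits with signals of 3.39 to 4.08, close to the lowest value of its list, 3.19. Replicate 2 had 1, with its summit 4550 bp upstream and a signal of 6.04 against a lowest value of 4.75, and it overlapped the replicate 1 peak of 4.08. The first pooled summit beyond the 5 kb limit stood 5685 bp upstream, at 8.87, and another lay 1129 bp past the 3′ end, at 9.46, nearest to the start of C30A5.10. The nearest thresholded summit lay 21677 bp from the gene body, close to the start of tsp-2, a tetraspanin gene (signal 56.0).

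The gene egl-46 (WBGene00001210, chrV:6679123-6681573, minus strand) had 3 pooled summits of low signal and none in the thresholded list. The summit 2328 bp upstream, within noncoding RNA genes, had 11.3 pooled and 8.18 in replicate 1, with no overlapping peak in replicate 2. That 4823 bp upstream, in an intron of K11G9.5, had 11.1 pooled and 9.498 in replicate 2, with none in replicate 1. The third, in coding sequence 626 bp from the gene start, had 10.5 pooled, 3.42 in replicate 1 and 8.30 in replicate 2. The next pooled summit upstream, outside the window, lay 8691 bp away with 8.68. All 3 in the window were close to or below the median of the pooled list, 11.3. EGL-46 and EGL-44 are known to work as partners, and of these genes egl-44 had thresholded peaks and egl-46 had its nearest one 156111 bp away.

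The effector gene mec-4 (WBGene00003168, chrX:16803321-16807115, minus strand) had no pooled summit in its window. Its strongest relaxed peaks were 6.81 in replicate 1, in an intron 524 bp from the start, and 7.78 in replicate 2, in an intron 2633 bp from the start, so they lay at different places. The gene aak-2 overlaps the 3′ end of mec-4, and the pooled peak nearest to mec-4, with its summit 94 bp past that end and a signal of 12.5, had its summit inside aak-2. Upstream, the first pooled summit beyond the limit lay 6201 bp away, at 20.2. The nearest thresholded summit was 65495 bp away.

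The effector gene mec-7 (WBGene00003171, chrX:7774856-7776689, minus strand) had 1 pooled summit, 4637 bp upstream in an intron of ZK154.4, with a signal of 9.21 at rank 16102 of 19023. Overlapping it were a peak of 4.24 in replicate 1 and a peak of 5.29 in replicate 2. These 2 did not overlap each other, with summits 4363 and 4719 bp upstream. A summit 51 bp upstream of the mec-7 start was found in replicate 2 alone, with 7.40 at rank 11620 of 28092, and replicate 1 had its nearest summit in coding sequence, 287 bp from the start, with 4.42. The strongest peak of replicate 2, at 7.57, lay 1325 bp upstream. The pooled summit nearest to mec-7 outside the window lay 610 bp past its 3′ end (chrX:7774086-7774405), at 13.4, with the mec-7 start as the nearest start. On the upstream side the first pooled summit outside the window stood 11378 bp from the start, at 21.3. The nearest thresholded summit was 46592 bp away, near the translation elongation factor gene eef-1A.2.

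The 200 bases upstream of the starts of mec-3 (chrIV:10461868-10462067) and mec-7 (chrX:7776690-7776889) are shown because both held AATGCAT, the word reported for UNC-86 with MEC-3, while the peaks of UNC-62 lay elsewhere or were weak. Both are on the minus strand and capitals have the same meaning as above.
mec-3 upstream: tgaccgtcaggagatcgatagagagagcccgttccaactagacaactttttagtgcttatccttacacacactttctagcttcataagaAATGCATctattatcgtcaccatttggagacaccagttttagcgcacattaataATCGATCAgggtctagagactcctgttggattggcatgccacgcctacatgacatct
mec-7 upstream: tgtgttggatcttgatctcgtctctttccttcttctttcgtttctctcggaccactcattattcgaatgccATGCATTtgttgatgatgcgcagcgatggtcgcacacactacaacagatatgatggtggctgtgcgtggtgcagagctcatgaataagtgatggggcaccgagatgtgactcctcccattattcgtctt

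The first bases of AATGCAT lay 111 bases before the mec-3 start and 129 bases before the mec-7 start, the latter on the other strand. The mec-3 stretch also held TGATNNAT, 57 bases before the start. Neither held TGACAG, TGATTGAC or CATTCC. The same upstream stretch of egl-44 held AATGCAT 89 bases before its first start, and those of unc-86, egl-46 and mec-4 held none of the 5 words. Over the 200 bases upstream of all 19973 genes, AATGCAT was in 2.75%, TGATNNAT in 16.2% and TGACAG in 6.34%. The mec-3 peak of UNC-62, 925 bp upstream, was thus separate from the AATGCAT copy near the mec-3 start.

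**Figure D3:**
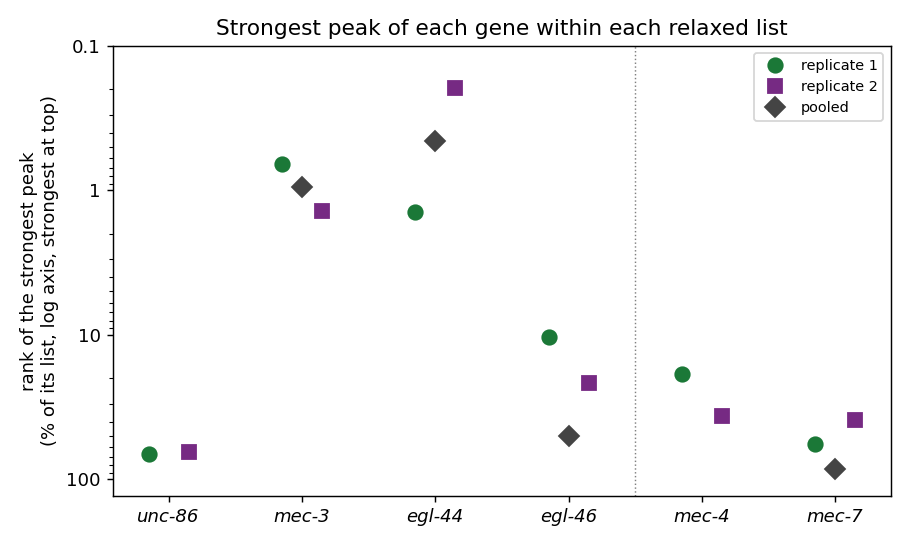
Rank of the strongest peak of each gene as a percent of its list (y axis, log scale, strongest at the top) in replicate 1 (circles), replicate 2 (squares) and the pooled list (diamonds); the dotted line separates regulators from effector genes. The points of mec-3 and egl-44 lie within the strongest 1.41% of every list, and the others lie at 10.4% or weaker.

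Ordered by the strongest pooled signal, the members were egl-44 (69.4), mec-3 (54.1), egl-46 (11.3) and mec-7 (9.21), with unc-86 and mec-4 below the list. The order of the first pair was not the same in both replicates: mec-3 had 20.8 against 16.0 for egl-44 in replicate 1, and 27.9 against 54.8 in replicate 2. As a share of its list, the strongest peak of mec-3 was in the top 0.657% of replicate 1 and 1.39% of replicate 2, and that of egl-44 in the top 1.41% and 0.196%. The next was egl-46, at 10.4% and 21.5%, followed by mec-4 at 18.6% and 36.7%, mec-7 at 57.0% and 39.1%, and unc-86 at 66.9% and 65.1%. The ranges of mec-3 and egl-44 overlapped each other and were apart from those of the other 4 genes. In the pooled list, egl-46 was at 49.95% and mec-7 at 84.6%. Over all 3 lists the range of egl-46 overlapped those of mec-4 and mec-7, and the range of mec-7 also held that of unc-86. Regulators and effector genes did not separate as groups, since unc-86 had the weakest signal of all in replicates 1 and 2.

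A wider set of 20 regulators and 16 effector genes of these neurons was listed from textbook knowledge, members included, with results of these lists known. A thresholded summit was in the window of 6 of the 20 regulators (30%) and 2 of the 16 effector genes (12.5%), against 6.05% of all genes. Without the 6 members, whose peaks were known when they were chosen, the counts were 4 of 16 regulators (25%) and 2 of 14 effector genes (14.3%). The remaining genes were also listed with results of these lists known, so leaving out the members does not free the counts of selection. Both counts of regulators include unc-62, the gene of the target itself, which is also carried on the transgene. Windows were longer than the median of all genes in both lists, at medians of 8824 and 9175 bp. The longest regulator windows, of lin-14 (25312 bp), unc-62 (18989 bp) and egl-44 (17029 bp), each held a thresholded summit. The windows of ahr-1 (13583 bp), lin-39 (12992 bp) and mab-5 (11620 bp), also longer than the list median, held none. The remaining regulators with a thresholded summit, mec-3, ceh-13 and ceh-20, had shorter windows of 8052, 7382 and 6902 bp. The longest effector window, of mec-2 (28077 bp), held none. Among genes with a window within 20% of that of egl-44, the share with a thresholded summit was 9.52%. Nearer to the list medians, within 20% of the windows of unc-86 (8597 bp) and mec-4 (8795 bp), the share was 6.54% and 6.60%. The part of window length in these counts was not tested. The median of the strongest pooled signal was 14.7 for the regulators and 10.4 for the effector genes with a pooled summit, beside 13.05 over the 14459 genes that had one. The strongest signal exceeded 13.05 at 12 of 20 regulators and 2 of 16 effector genes, against 36.2% of all genes, those without a pooled summit included. Pooled summits were found at 18 of 20 regulators (90%) and 11 of 16 effector genes (68.8%), against 72.4% of all genes, so the share of the effector genes was near that of any gene.

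Beside mec-3 and egl-44, the regulators with a thresholded summit were ceh-20, unc-62, lin-14 and ceh-13. The Pbx-type gene ceh-20 had a signal of 107 (27.3 and 82.6 in replicates 1 and 2), and unc-62, which is also on the transgene, had 5 such summits, the strongest at 79.1 (13.1 and 70.2). LIN-14 is a timing factor of larval development, and the peak of lin-14 (chrX:11481003-11481322) had 37.8, with 8.13 and 28.8. CEH-13 is a Hox protein, and the peak of ceh-13, 4466 bp upstream (chrIII:7551034-7551353), had 33.8, with 3.70 in replicate 1 and 27.4 in replicate 2. In all 6 regulators the start nearest to the strongest thresholded peak was a start of the regulator itself. How often this held over the 1209 genes with a thresholded summit was not computed. A gene with many starts, such as egl-44 with 9, also has more starts that can be nearest. Regulators above the median of all genes without such a summit were ahr-1 (21.6), lin-32 (16.1), lin-39 (15.003), mab-5 (14.5), and php-3 and nob-1, which share a pooled peak of 13.2.

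Among effector genes, mec-10, which encodes another subunit of the touch channel, had a thresholded summit 3300 bp upstream (chrX:8473454-8473773, signal 34.0, with 16.4 and 22.3 in the replicates). The start of nhr-14, a nuclear receptor gene, was nearer to it, with the summit 2562 bp downstream of that start. The peak spanned the 3′ end of nhr-14. The collagen gene mec-5 had one 3976 bp upstream (chrX:15939873-15940192, signal 31.4, with 11.7 and 24.4). It was nearest to the start of mrp-3 and lay 709 bp upstream of that start. Both peaks thus belong to their effector gene by the window rule and to a neighbour by the nearest start. The other 14 effector genes had at most 12.4 in the pooled list, the value at mec-6, and mec-1, mec-4, mec-9, mec-14 and mtd-1 had no pooled summit.

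**Figure D4:**
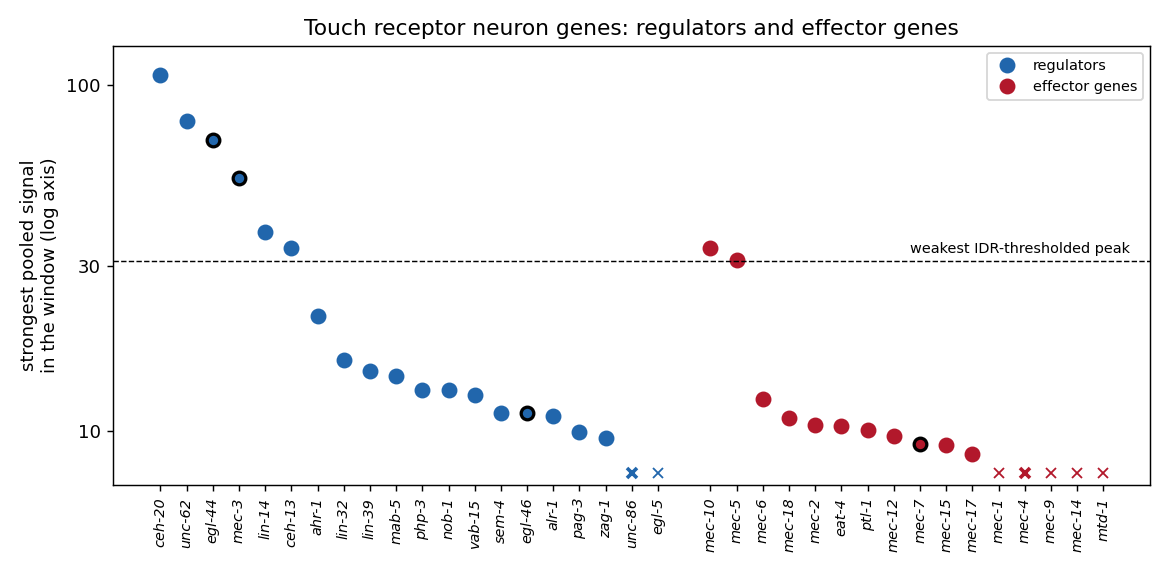
Strongest pooled signal in the window (y axis, log scale) of 20 regulators (blue) and 16 effector genes (red), each ordered by value. Black rims mark members, crosses mark genes without a pooled summit (a heavy cross is a member), and the dashed line is the weakest thresholded peak, 31.2. Above the line lie 6 regulators and 2 effector genes.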

How the data were processed

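The data were peak lists from 1 group with 2 biological replicates. According to the deposited README texts, a replicate list came from its own alignment with a control, the pooled list from both, and the thresholded list from these 3. No source used here gives the aligner, the peak caller or the read depth, and signal depends on all of them. The signal as deposited by the authors (column 7) was used within lists. All 843 thresholded peaks had the same deposited −log10 q-value, 3.40, which is the highest in their list and so gave no order. These 843 were the strongest peaks of the pooled list.

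Only the 4 lists on ce11 were used. Genes, transcript starts and features were those of Ensembl release 115 (WBcel235, the same assembly as ce11). Sequence was read from the RefSeq copy of it. A peak belonged to each gene whose body or 5 kb upstream held its summit. A peak was matched between lists by an overlap of at least 1 bp, taking the strongest. Python 3.11.15, numpy 2.4.6, pandas 2.3.3 and matplotlib 3.10.9 were used, and the window step was tested on simulated data. The members, gene lists and words were chosen with earlier results of these data known. With 1 group and members chosen on these values, no test was run. Named genes were the members, listed genes with a thresholded summit or a strongest pooled signal above the median of all genes, neighbours of member peaks, and the genes nearest to the 3 peaks most like that of mec-3. The names mec-6, mec-1, mec-9, mec-14 and mtd-1 were added after their values were seen. Alternatives were other windows, the nearest start, any overlap, the stronger part of the list and each replicate alone. The sequence of 1 peak is not reported here.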

Additional observations from a re-analysis of the deposited data

How the results depend on the processing

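The count of members with a thresholded summit was 2, the genes egl-44 and mec-3, under each alternative but 1. These were windows with 1 kb or 10 kb upstream, the nearest start, any overlap, the stronger part of the list, nuclear peaks only, and the 843 strongest peaks of either replicate (2 in each). With the 5 kb upstream alone it was 1, mec-3, since the egl-44 peaks lie in the gene body. For the pooled list the count of 4 ranged from 3 to 6 over the alternatives, and was 6 in the whole relaxed list of each replicate. Without replicate 1 or 2 the strongest peak of mec-3 ran from the top 0.657% to 1.39%, of egl-44 from 0.196% to 1.41%, of egl-46 from 10.4% to 21.5% and of mec-7 from 39.1% to 57.0%, against 0.941%, 0.457%, 49.95% and 84.6% in the pooled list. Among the 843 strongest peaks, mec-3 had 1 in replicate 1 and 2 in replicate 2. At egl-44 each replicate had 3, of which the first and middle intronic peaks were in both. The third was at rank 444 in replicate 1 and outside the thresholded list, and in replicate 2 it was the last intronic peak, which ranked 17045 in replicate 1. No paired analysis was possible because there was 1 group. The read depth is unknown, so a summit missing from a list was not detectable there and is not shown to be absent.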
